A study of Mus musculus with 8 samples.

Results

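The genes described here are 10 genes of the integrated stress response around the transcription factor ATF4, taken by name: ATF4, ATF5, DDIT3, TRIB3, CHAC1, ASNS, SESN2, PSAT1, PHGDH and XBP1. All 10 were among the 16974 genes of the deposited table, and all 10 were listed in every library, as were 15894 genes in all. The cells were Neuro2A (N2A), a mouse neuroblastoma line that extends neurites when its cannabinoid-1 receptor is activated. They were starved for 16 h in serum-free MEM with 0.1% bovine serum albumin, which applies to every library, and then received 2 µM HU210, a potent agonist of that receptor, dissolved in DMSO, or the same volume of DMSO without the drug. RNA was taken after 2, 4, 6 and 8 h, and 1 mRNA library was made for each of the 8 combinations. Each library holds RNA pooled from 2 to 3 independent experiments on a single cell line, so that a time point has no replicate of its own. Levels are given as FPKM, the number of fragments mapped to a gene scaled for its transcript length and for the size of the library.

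The integrated stress response begins with kinases that phosphorylate the initiation factor eIF2, each of which senses a different stress: unfolded protein in the ER, amino acid shortage, double-stranded RNA or lack of heme. General translation then slows while the ATF4 mRNA is translated more, because short reading frames upstream of its coding region let ribosomes through under these conditions. The ATF4 protein, usually as a dimer with a C/EBP protein, binds CARE elements and turns on genes for amino acid synthesis and transport, for redox balance and, when stress lasts, for cell death. The amount of ATF4 mRNA is therefore not a measure of ATF4 protein. XBP1 belongs to the neighbouring IRE1 branch of the unfolded protein response, which works by removing an intron from its mRNA, and the gene-level values used here do not separate the spliced from the unspliced form.

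The CARE element was searched as TGATGNAA on both strands of the RefSeq promoter windows of GRCm38.p6, which run from 250 bases before to 50 bases after a start site. The 10 genes have 12 such windows. It was present in 3 of these 12, which belong to 3 of the 10 genes, and in 3.91% of all 32544 windows. The 3 matches, with 11 bases on either side and the motif in capitals, are printed 5′ to 3′ on the strand of the gene because they show which of the genes carry the element close to their start.
Chac1, chr2:119351038-119351067, plus strand: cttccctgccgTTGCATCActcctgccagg
Trib3, chr2:152344028-152344057, minus strand: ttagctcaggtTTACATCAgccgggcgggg
Asns, chr6:7693214-7693243, minus strand: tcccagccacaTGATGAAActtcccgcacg
The match in Asns reads TGATGAAA on the gene's strand at bases -23 to -16 from the start site. Those in Chac1 (bases -193 to -186) and Trib3 (bases 15 to 22) lie on the other strand, so their capitals show the reverse complement. The cyclic AMP response element TGACGTCA was present in none of the 10 and in 1.80% of all windows. The ER stress element, CCAAT and CCACG with 9 bases between them, was present in none of the 10 and in 0.120% of all windows. A match is a stretch of letters and not a measured binding site, and no binding was assayed.

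On mm9, the build of the deposited values, Atf4 (ENSMUSG00000042406) lies on chromosome 15 from 80085614 to 80087970 and Chac1 (ENSMUSG00000027313) on chromosome 2 from 119176965 to 119180117, both on the plus strand. Trib3 (ENSMUSG00000032715) lies on chromosome 2 from 152163158 to 152169768, Phgdh (ENSMUSG00000053398) on chromosome 3 from 98117093 to 98143913 and Asns (ENSMUSG00000029752) on chromosome 6 from 7625169 to 7643254, all on the minus strand. All 10 are annotated as protein-coding genes. Their transcripts were rich in G and C for the most part: 8 of the 10 lay above the median of 50.5% over the tested genes, from 53.0% for Xbp1 to 61.7% for Atf5, and Psat1 with 48.4% and Asns with 47.7% lay below it.

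The libraries were alike in overall level, with 11222 to 11346 genes at 1 FPKM or more. Of 11 neuroblast and sympathetic markers, 9 were listed, all at 1 FPKM or more, among them HAND2, GATA3, TH, DBH and MYCN, and their sum was 316 to 394 FPKM with HU210 and 324 to 370.4 FPKM with DMSO. Of 10 markers of other cell types, 6 were listed, with sums of 5.57 to 7.34 FPKM and only PECAM1 and MBP at a mean of 1 FPKM or more. One library stood apart. The DMSO library of 4 h had the lowest median correlation with the others (Pearson's r = 0.983, against 0.986 to 0.989 for the other libraries), and the lowest r of any pair, 0.973, was that with the HU210 library of 4 h. This library held the lowest value of 6 of the 10 genes (ATF5, DDIT3, TRIB3, CHAC1, SESN2 and PHGDH) and the highest of ASNS. Of all tested genes, 18.3% were lowest and 27.3% highest in it, and 20.4% were lowest in the HU210 library of 4 h. The results at 4 h are therefore given below also against the mean of the other 3 DMSO libraries.

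The stress response genes were strongly expressed in starved N2A cells, with or without HU210. ATF4 averaged 544 FPKM and ASNS, which makes asparagine from aspartate and glutamine, 523 FPKM, against a median of 12.7 FPKM over the 11311 tested genes, so that both were among the highest 100 genes (ranks 92 and 97). PSAT1 with 222 FPKM and PHGDH with 121 FPKM, both of the serine synthesis pathway, were also in the top 5% of genes. DDIT3, which encodes the proapoptotic factor CHOP, averaged 100.03 FPKM and ATF5, a factor related to ATF4, 95.8 FPKM. TRIB3, a pseudokinase that feeds back on ATF4 and DDIT3, averaged 63.4 FPKM, XBP1 59.9 FPKM and CHAC1, which degrades glutathione, 53.9 FPKM. SESN2, a stress-induced inhibitor of mTORC1 signalling, was lowest, with 21.4 FPKM, above 66.1% of the tested genes.

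The order of these levels held in every library at 4 steps, ASNS above PSAT1, PSAT1 above PHGDH, ATF5 above TRIB3 and CHAC1 above SESN2. At the other steps the ranges overlapped. ATF4 was above ASNS in 5 of 8 libraries, PHGDH above DDIT3 in 7, DDIT3 above ATF5 in 6, TRIB3 above XBP1 in 5 and XBP1 above CHAC1 in 6. The genes differed little between libraries. The highest value of a gene was between 1.21 (ATF5) and 1.60 (CHAC1) times its lowest, and the median SD of log2(FPKM + 1) over the 8 libraries was 0.135 for the 10 genes and 0.145 for all tested genes. CHAC1 and ASNS varied most, with SDs of 0.218 and 0.210, and ATF5 least, with 0.0862, which was above the SD of 13.0% of the tested genes.

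**Figure D1:**
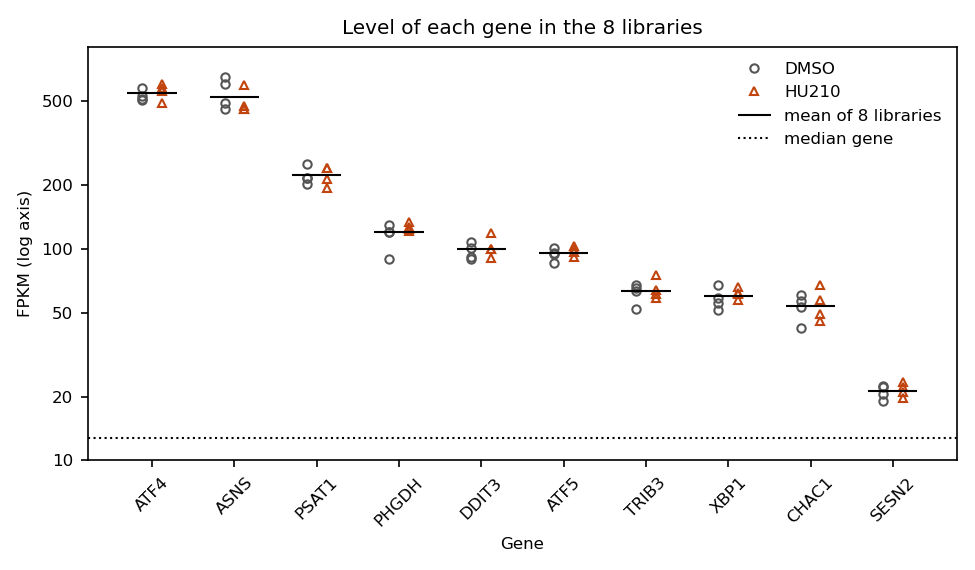
Level of each gene in FPKM (log axis) in the 4 DMSO libraries (circles) and the 4 HU210 libraries (triangles), with the mean of the 8 libraries as a bar and the median of all tested genes as a dotted line. All 10 genes lie above the median of 12.7 FPKM in every library, ATF4 and ASNS with means of 544 and 523 FPKM stand highest, and the DMSO and HU210 values of each gene overlap.

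Among the transcription factors, ATF4 had 573, 507, 512 and 530 FPKM with DMSO and 604, 555, 491 and 577 FPKM with HU210 at 2, 4, 6 and 8 h. The treated and control values overlapped, and HU210 was the higher of the pair at 3 of 4 time points. ATF5 had 94.5, 85.3, 100.9 and 95.8 FPKM with DMSO and 96.1, 91.5, 99.3 and 103 FPKM with HU210, a narrow band with its lowest value in the DMSO library of 4 h. DDIT3 had 91.3, 89.8, 108 and 101 FPKM with DMSO and 90.8, 99.9, 100.2 and 119 FPKM with HU210. Its values at 6 h and 8 h were above those at 2 h and 4 h in both series. XBP1 had 55.2, 58.5, 67.6 and 51.2 FPKM with DMSO and 57.6, 61.3, 61.9 and 65.9 FPKM with HU210. Both its highest and its lowest value were in DMSO libraries, at 6 h and at 8 h.

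Among the effectors, TRIB3 had 63.5, 51.9, 67.2 and 65.6 FPKM with DMSO and 58.5, 64.0, 60.9 and 75.5 FPKM with HU210, so that the control was higher at 2 h and 6 h and the treated library at 4 h and 8 h. CHAC1 had 52.9, 42.0, 60.5 and 56.4 FPKM with DMSO and 45.6, 67.2, 49.1 and 57.4 FPKM with HU210. Its lowest and its highest value were the 2 libraries of 4 h, and it was lower with HU210 at 2 h and 6 h. SESN2 lay between 19.0 FPKM (DMSO, 4 h) and 23.4 FPKM (HU210, 8 h).

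Among the enzymes of amino acid synthesis, ASNS had 490, 649, 457 and 599 FPKM with DMSO and 457, 475, 458 and 597 FPKM with HU210. The pairs at 6 h and 8 h were nearly equal, and the DMSO library of 4 h was the highest of all. PHGDH, the first enzyme of serine synthesis, had 120, 89.5, 129 and 120 FPKM with DMSO and 127, 134, 121 and 124 FPKM with HU210. Here the DMSO library of 4 h was the lowest, and the other 7 lay between 120 and 134 FPKM. PSAT1, the second enzyme of that pathway, ranged from 194 FPKM (HU210, 2 h) to 252 FPKM (DMSO, 8 h).

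**Figure D2:**
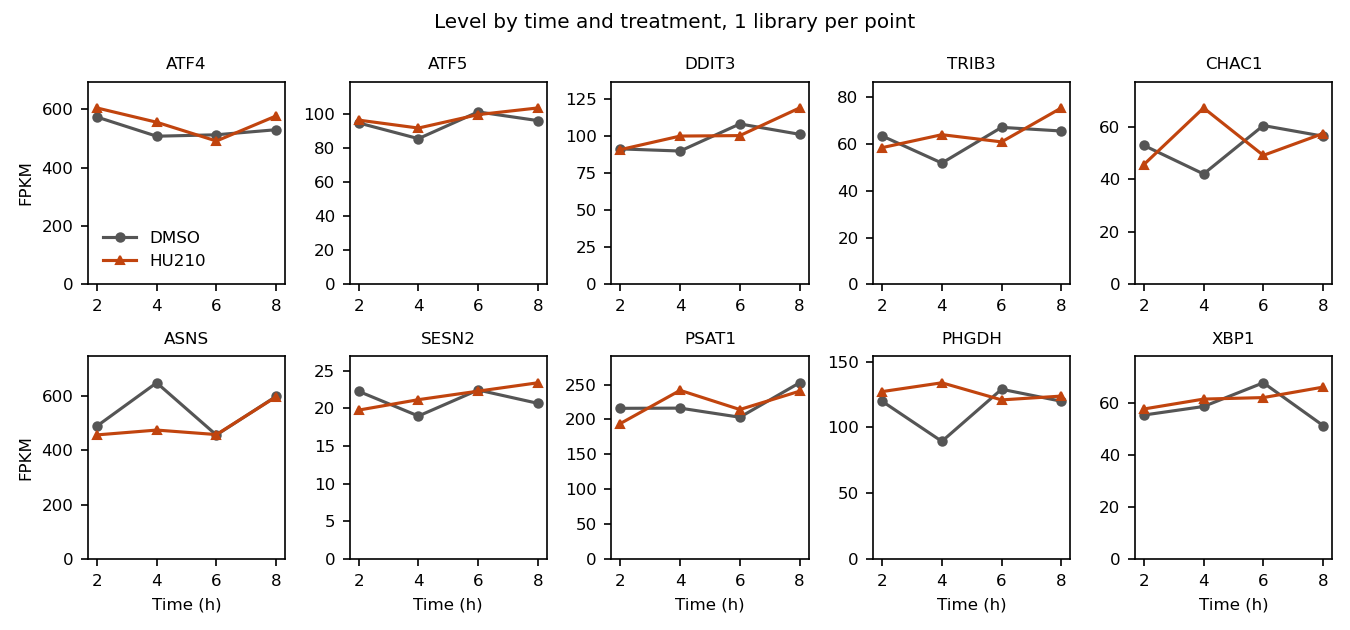
FPKM of each gene (axes from 0) against hours after the addition of HU210 (triangles) or DMSO (circles), 1 library per point. The gap between the curves is widest at 4 h for CHAC1, PHGDH and ASNS, where the DMSO value departs from its neighbours in time.

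The first comparison sets the same libraries against each other as the study did, HU210 against DMSO at each time point. It is the difference of log2(FPKM + 1), which understates changes of low genes. The study called genes by an adjusted p-value together with a minimum fold change. Here the fold change alone was used, so the counts below are not those of the study. With 1 library on each side no test was run. A gene was counted where it differed by 1.5-fold or more (a log2 change of 0.585). None of the 10 genes did so at 2 h, where 1.95% of the tested genes did, at 6 h (2.37%) or at 8 h (1.72%). At 4 h, where 11.5% of the tested genes passed, CHAC1 did, with a log2 change of 0.66 (1.58-fold higher with HU210). PHGDH was just short of the limit with 0.58, ASNS followed with -0.45 and TRIB3 with 0.30. No gene of the 10 lay on the same side of DMSO at all 4 time points, as 7.93% of the tested genes did.

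The counts at 4 h rested on the DMSO library. On the log2 scale that library differed from the mean of the other 3 DMSO libraries by -0.42 in CHAC1, -0.45 in PHGDH, -0.33 in TRIB3 and 0.34 in ASNS. Against the mean of those other 3, the HU210 library of 4 h differed by 0.25 in CHAC1, 0.12 in PHGDH, -0.03 in TRIB3 and -0.11 in ASNS, and none of the 10 passed 1.5-fold. The number of tested genes that passed dropped from 1297 to 184. Across 10590 genes, the log2 change at 4 h also moved with the GC content of the transcript (Spearman's rho = 0.53 across genes, which are not independent replicates), more than at 2 h (0.17), 6 h (-0.30) and 8 h (-0.15). With a trend in GC content and length removed, the change at 4 h was 0.51 for CHAC1, 0.43 for PHGDH and -0.28 for ASNS, and again none passed.

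Counted by direction, most of the 10 genes lay on one side of 0 at 4, 6 and 8 h, and the side changed between time points. HU210 was the higher in 4 of the 10 at 2 h, in 9 at 4 h, in 2 at 6 h and in 8 at 8 h, with median log2 changes of -0.053, 0.15, -0.077 and 0.11. Of all tested genes, 36.0%, 40.9%, 65.6% and 62.5% were higher with HU210 at these times. The medians over all tested genes were -0.051, -0.081, 0.062 and 0.044. The median of the 10 was thus on the other side of 0 from that of all genes at 4 h and 6 h. At 6 h this did not hold against the mean of all 4 DMSO libraries. Removing the GC and length trend brings the median of all genes near 0 (0.012 at 4 h, -0.0074 at 6 h), so the sides cannot be compared there. The medians of the 10 were then 0.050 at 4 h and -0.11 at 6 h. With the mean of the 3 DMSO libraries of 2, 6 and 8 h as reference the counts of the 10 were 2, 5, 4 and 10, with a median of 0.023 at 4 h. With the GC and length trend removed they were 5, 8, 0 and 7. The medians over all tested genes were -0.011, -0.026, 0.042 and 0.032 against the 3 DMSO libraries, and between -0.0081 and 0.012 with the trend removed. The shares of all tested genes above 0 in these settings are not given here. At 8 h the largest differences within the pair were those of XBP1 (0.36, and 0.19 against the 3 DMSO libraries), DDIT3 (0.23 and 0.25) and TRIB3 (0.20 and 0.20), while ASNS had -0.0040 within the pair and 0.22 against the 3. At 6 h CHAC1 had -0.29 (-0.20 against the 3 DMSO libraries).

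**Figure D3:**
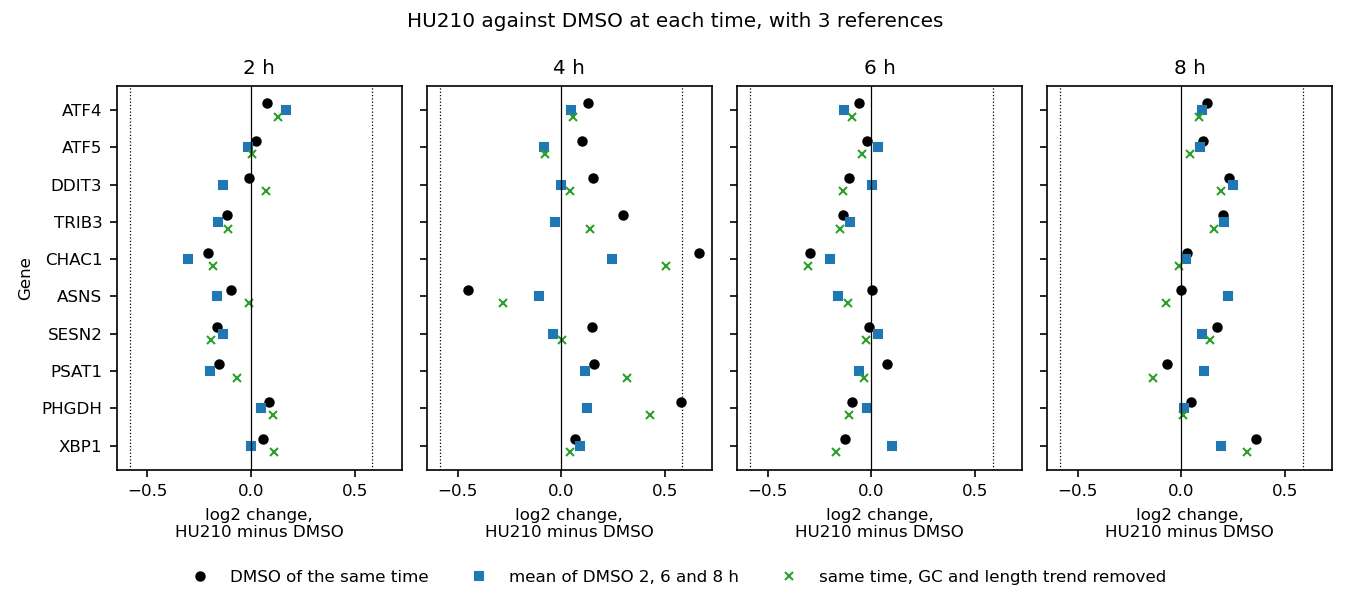
Log2 change of each gene, HU210 minus DMSO, at 2, 4, 6 and 8 h (panels), against the DMSO library of the same time (circles), the mean of the 3 other DMSO libraries (squares, the same 3 in every panel: 2, 6 and 8 h) and the same time with the GC and length trend removed (crosses); dotted lines mark 1.5-fold. Only the circle of CHAC1 at 4 h, at 0.66, is past a dotted line, and its square is at 0.25.

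Taken over the 4 time points as pairs, none of the 10 genes passed the test of HU210 against DMSO. In limma on log2(FPKM + 1) with time as a factor, 0% of the 11311 genes had an adjusted p under 0.05, with 148 genes at an unadjusted p under 0.05 and none of the 10 among them. The mean difference was 0.067 for ATF4 (SE 0.085, 95% confidence interval -0.14 to 0.27), with 530.7 ± 29.9 FPKM with DMSO and 557 ± 48.3 FPKM with HU210 (SD, n = 4 time points). It was 0.15 for PHGDH (interval -0.15 to 0.46), 0.046 for CHAC1 (-0.36 to 0.45) and -0.14 for ASNS (-0.40 to 0.13). The other 6 lay between 0.0033 for PSAT1 and 0.090 for XBP1. The intervals leave room for changes of some size in either direction, and those of CHAC1, ASNS and PHGDH were the widest. The limma adjusted p rounded to 1 for all 10. Without the 4 h pair, the difference was -0.16 for CHAC1, -0.018 for TRIB3 and 0.013 for PHGDH. The p-values measure the spread between these pooled libraries, with any difference in the drug's effect between time points counted as error.

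The next comparison was between times. Set against the 4 libraries of 2 h and 4 h, the 4 libraries of 6 h and 8 h were higher on average in 9 of the 10, all except ATF4, where 47.8% of the tested genes were higher. The tally for treatment was alike, with HU210 higher on average in 9 of the 10, all except ASNS, beside 48.4% of the tested genes. This tally leaned on the 4 h pair. Without that pair, HU210 was lower in CHAC1 (-0.16), PSAT1 (-0.049), ASNS (-0.033), TRIB3 (-0.018) and SESN2 (-0.00061), and higher in the others. DDIT3 had 89.8 to 99.9 FPKM in the early libraries (mean 93.0 ± 4.69, SD, n = 4) and 100.2 to 119 FPKM in the late ones (107 ± 8.62), and it alone of the 10 had late values that were all above the early ones, as 3.24% of the tested genes did. Its log2 difference was 0.20 (SE 0.082, 95% interval 0.012 to 0.39), which put it among the 815 tested genes at an unadjusted p under 0.05, with a limma adjusted p of 0.68. The interval included 0 with each library centred on its median (-0.021 to 0.40) and in 10 of 12 fits that left out a library or a time point. TRIB3 followed with 0.18 (interval -0.049 to 0.40), from 59.5 ± 5.64 to 67.3 ± 6.06 FPKM. ATF5, with 91.8 ± 4.78 early and 99.8 ± 3.11 FPKM late, differed by 0.12 (-0.045 to 0.29), with 1 early library above the lowest late one. SESN2 differed by 0.11 and CHAC1 by 0.12. ATF4 differed by -0.086 (-0.30 to 0.13). None of the 10 passed the threshold after adjustment, nor did any other tested gene (0% in limma). This fit treated the 2 libraries of a time point as independent, and each side holds only 2 time points. Its intervals and p-values therefore do not measure the spread between times. Fewer cells in a given state and less RNA per cell cannot be told apart in these bulk libraries.

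The test of whether the HU210 effect itself differed between the late and the early pairs also called 0% of the tested genes in limma, with 1786 at an unadjusted p under 0.05 and none of the 10 among them. The largest differences were -0.36 for CHAC1 (95% interval -0.996 to 0.27, limma adjusted p = 0.54), -0.35 for PHGDH (-0.83 to 0.12, adjusted p = 0.43) and 0.27 for ASNS (-0.40 to 0.95, adjusted p = 0.66). All 3 rested on the 4 h pair: without it they were 0.075, -0.11 and 0.10.

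**Figure D4:**
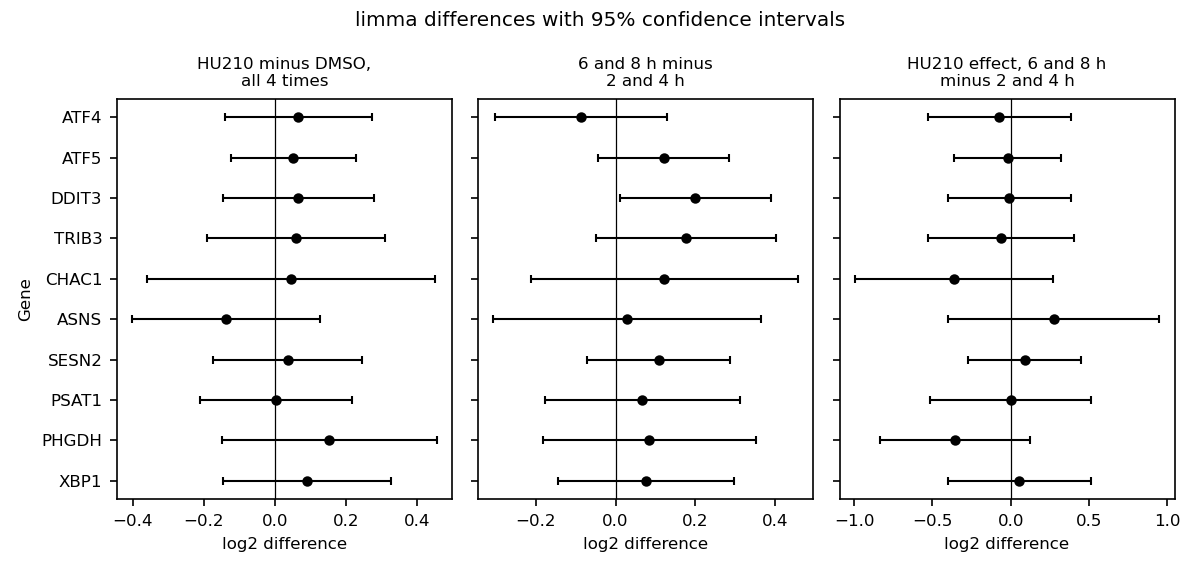
Log2 differences from limma with 95% confidence intervals (bars) for HU210 minus DMSO, for the late minus the early libraries, and for the difference of the HU210 effect between late and early; the 3 panels have separate scales. All 30 intervals include 0 except that of DDIT3 for late minus early, 0.012 to 0.39, whose adjusted p is 0.68 and which includes 0 once the libraries are centred (-0.021 to 0.40).

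Across the libraries, DDIT3, TRIB3, SESN2 and ATF5 moved together, and the mRNA of ATF4 did not follow them. DDIT3 and TRIB3 had r = 0.87 over the 8 libraries, TRIB3 and SESN2 0.84, ATF5 and SESN2 0.81, and ATF5 and TRIB3 0.81. Of the 45 pairs, 8 had r above 0.7 and 12 were below 0, and the median was 0.40. Without the DMSO library of 4 h the median was 0.25, and DDIT3 with TRIB3 had 0.89, TRIB3 with SESN2 0.71, ATF5 with SESN2 0.62 and ATF5 with TRIB3 0.57. Some pairs of PHGDH fell to below 0: PHGDH with TRIB3 went from 0.68 to -0.028 and with ATF5 from 0.68 to -0.26. Others did not: PHGDH with CHAC1 went from 0.72 to 0.53 and with XBP1 from 0.24 to 0.51. ASNS and PSAT1 had 0.54, and 0.78 without that library. Also without it, XBP1 had 0.64 with DDIT3, 0.61 with SESN2, 0.59 with ATF5 and 0.43 with TRIB3. ASNS then had 0.69 with TRIB3 and 0.52 with DDIT3, but 0.20 with SESN2 and 0.25 with ATF5. Values of this size were thus not particular to DDIT3, TRIB3, SESN2 and ATF5. These are descriptions over 8 libraries, or 7, that share 4 time points and a common normalisation. The 4 genes were picked from the 45 pairs in these same data and were not set against other gene pairs. Their transcripts have a GC content of 55.4% (Ddit3) to 61.7% (Atf5), a range that also holds Chac1 (57.4%) and Phgdh (57.2%). Whether GC content bears on these correlations was not tested.

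**Figure D5:**
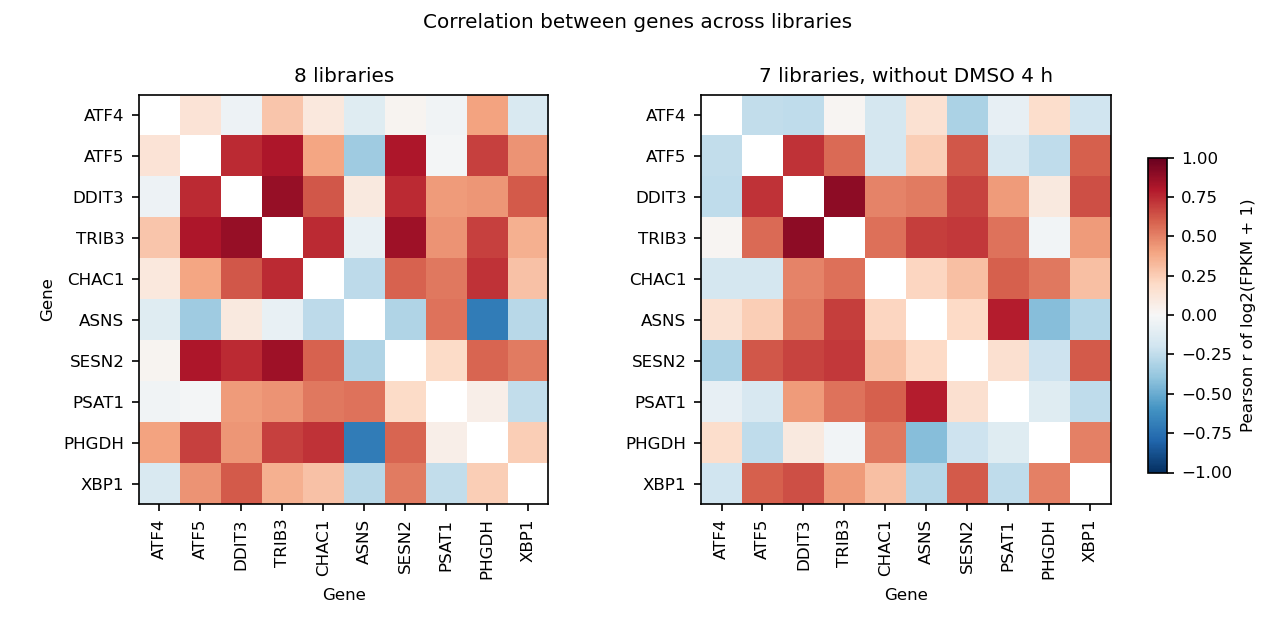
Pearson's r of log2(FPKM + 1) between each pair of the 10 genes over all 8 libraries (left) and over 7 without the DMSO library of 4 h (right), on a colour scale from -1 to 1. The block of ATF5, DDIT3, TRIB3 and SESN2 is red on both sides, from 0.57 to 0.89 on the right, and the values of ATF4 lie between -0.31 and 0.40.

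ATF4 itself had r between -0.15 (XBP1) and 0.40 (PHGDH) with the other 9. The 5 genes most like it over the 8 libraries were UTP14A (0.95), ARFGAP2 (0.94), TMED3 (0.94), HOOK2 (0.93) and CRTC2 (0.92). UTP14A takes part in ribosome biogenesis, ARFGAP2 and TMED3 in traffic between ER and Golgi, and CRTC2 is a coactivator of CREB. They averaged 2.73 (HOOK2) to 30.6 FPKM (TMED3), far below ATF4. They were chosen as the highest over all tested genes.

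The wider pathway was taken from 7 lists with 99 genes besides the 10, of which 94 were listed in all libraries and 92 were tested. None of the 92 was called in any of the 3 limma tests. Of the 92, 0, 6 and 10 had an unadjusted p under 0.05 in these tests. Of all 11311 tested genes, 148, 815 and 1786 did. At single time points 1 of the 92 was past 1.5-fold at 2 h (1.09%, beside the 1.95% of all tested genes), 6 at 4 h (6.52%, beside 11.5%) and none at 6 h or 8 h. The gene at 2 h was EIF2AK3, which encodes PERK, the eIF2 kinase of the ER, with 8.54 FPKM with HU210 and 13.7 with DMSO (log2 change -0.62, and -0.58 with the trend removed, which is short of the limit). At 4 h CBS (0.62), of the transsulfuration pathway, GDF15 (0.84), a secreted stress hormone, and the ER protein MANF (0.68) were higher with HU210, and SESN3 (-0.65), PDIA3 (-0.82) and HSP90B1 (-0.69), the last 2 an oxidoreductase and a chaperone of the ER, were lower. Against the other 3 DMSO libraries none of these 6 passed 1.5-fold: CBS had 0.35, GDF15 0.42, MANF 0.12, SESN3 -0.13, PDIA3 -0.11 and HSP90B1 -0.14. EIF2AK3, lower with HU210, was the only one of the 92 past 1.5-fold at 4 h with that reference (1.09%, beside 1.63% of all tested genes). Within the 4 h pair it had 10.00 FPKM with HU210 and 12.8 with DMSO and did not pass. The reference includes its value of 23.9 FPKM with DMSO at 8 h, so the difference mixes time with treatment.

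The DMSO library of 4 h was again an extreme one. It was the lowest of the 8 for GDF15 (22.8 FPKM, the others 27.5 to 41.6), MANF (94.5, the others 118.6 to 152) and CBS (6.83, the others 7.42 to 11.04), and the highest for PDIA3 (189, the others 105.003 to 140.2), HSP90B1 (376, the others 219.7 to 312) and SESN3 (5.97, the others 3.33 to 4.87). The HU210 library of 4 h was in turn the highest of the 8 for GDF15 (41.6 FPKM), MANF (152) and CBS (11.04). It was not the lowest for PDIA3 (107), HSP90B1 (233) or SESN3 (3.45). EIF2AK3 had 13.7, 12.8, 14.2 and 23.9 FPKM with DMSO and 8.54, 10.00, 16.2 and 17.2 FPKM with HU210 at 2, 4, 6 and 8 h. Its late libraries were all above its early ones, with a log2 difference of 0.62 and a limma adjusted p of 0.52.

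At 8 h most of the wider pathway was slightly higher with HU210. Of 23 ER chaperones and genes of ER-associated degradation 22 were above 0, with a median log2 change of 0.20, of 12 secreted and other ATF4 targets all 12 (0.16), and of 11 partner and stress factors all 11 (0.077), beside 62.5% of all tested genes and their median of 0.044. Each pair centred on its median, which sets the median of all genes to 0, the counts were 20, 12 and 9. Against the 3 DMSO libraries without that of 4 h, where the median of all genes was 0.032, they were 22, 12 and 9. These lists share genes: DDIT4 and NUPR1 are in both the target and the factor list, and HERPUD1 is in the target and the ER list. The tRNA charging genes (9 of 13, median 0.047), the amino acid transporters (6 of 9, 0.092), the enzymes of serine, glycine and one-carbon metabolism (9 of 12, 0.093) and the eIF2 kinases and subunits (7 of 15, -0.043) had smaller shares above 0, but against the 3 DMSO libraries they had 13 of 13, 8 of 9, 10 of 12 and 11 of 15. That reference mixes times, and the share of all tested genes above 0 with it is not given here. The counts against it therefore have no base rate beside them. None of the differences at 8 h has a replicate, and at 6 h the ER list had 15 of 23 above 0 with a median of 0.037, below the 0.062 of all genes.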

How the data were processed

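mRNA of 8 libraries was analysed. The authors mapped reads to mm9 using bowtie 2.1.0 under TopHat 2.0.8, along with version 0.1.7 of samtools, Ensembl gene models and no new junctions. Cufflinks, in a version not given in the sources used here, gave FPKM, scaled to the upper quartile of each library and corrected for fragment bias and for reads that map to several places. The authors deposited FPKM with 1 added, which was subtracted. Reads shared with near-identical copies were divided by the latter, and whether any of the genes has such a copy was not tested. The deposited values hold no read depth per gene, so precision is known only from the spread between libraries. The columns and table of the authors' own comparisons (log2 fold changes, p-values and q-values) were not used.

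Genes listed in all libraries with a mean FPKM of at least 1 (11311) were fitted in limma 3.58.1 (R 4.3.3; empirical Bayes with trend) on log2(FPKM + 1) with Benjamini-Hochberg adjustment. The code was tested on simulated data. GC content and length came from GENCODE vM1 on mm9 for 93.6% of tested genes, and the trend was a loess fit (span 0.3). The 10 genes and the lists were chosen with earlier results of these data known. List genes were named where they passed 1.5-fold at a time point or the limma threshold, at most 3 per list and direction, and the 5 genes most correlated with ATF4 were named. The reference without the DMSO library of 4 h was added after seeing the data, as were the correlations without it. The alternatives are described at the end. One marker of the neuroblast list is not reported here.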

Additional observations from a re-analysis of the deposited data

How the results depend on the processing

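No call of any of the 10 genes in the 3 limma tests passed the threshold under any alternative, with adjusted p-values from 0.0896 (CHAC1, HU210 effect late against early, without 2 h) upwards. Tests on 2 to 6 residual degrees of freedom leave wide intervals, so small differences were not detectable. The time factor pairs the 2 libraries of a time point, and without it limma again called 0 genes for HU210 against DMSO.

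Genes past the fold at 2, 4, 6 and 8 h numbered 221, 1297, 268 and 195. A pseudocount of 0.1 gave 344 at 2 h, 421 at 6 h and 341 at 8 h. A 1.3-fold limit gave 610, 3265, 916 and 658, with 3 of the 10 genes at 4 h (CHAC1, ASNS and PHGDH). The mean of the 4 DMSO libraries as reference gave 232 at 4 h and 167 at 6 h, with 0 of the 10 genes at 4 h. The mean without the 4 h DMSO library gave 184 at 4 h, also with 0. Removing the GC and length trend gave 106, 635, 155 and 111, with 0 of the 10 genes at 4 h. Centring each pair on its median brought PHGDH past the limit, 2 of the 10 genes at 4 h, and moved the genes higher and lower with HU210 from 313 and 984 to 508 and 686 at 4 h, from 196 and 72 to 142 and 96 at 6 h, and from 132 and 63 to 103 and 79 at 8 h. For the HU210 effect late against early, no filter on low values gave 7 genes and leaving out a time point 0 to 1, the 1 without 6 h, none of them among the 10.

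Some small differences changed sign. Centring each library turned the late against early HU210 effect to -0.059 in SESN2 and -0.093 in XBP1. Leaving out 1 time point gave, for HU210 against DMSO, -0.018 to 0.13 in TRIB3, -0.16 to 0.16 in CHAC1, -0.0080 to 0.10 in SESN2 and -0.049 to 0.055 in PSAT1. Leaving out 1 library or time point gave, for late against early, -0.16 to 0.22 in ASNS, -0.052 to 0.19 in PSAT1 and -0.035 to 0.17 in PHGDH. For the HU210 effect late against early, leaving out 1 time point gave -0.16 to 0.020 in ATF4, -0.085 to 0.044 in ATF5, -0.18 to 0.16 in DDIT3, -0.27 to 0.15 in TRIB3, -0.80 to 0.075 in CHAC1, -0.068 to 0.24 in SESN2, -0.16 to 0.16 in PSAT1 and -0.19 to 0.30 in XBP1. The cause of these changes was not tested.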
